A study of Rattus norvegicus with 4 samples.

Results

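The carriers described here move bile acids and other organic anions across the hepatocyte membrane, and were measured in rat liver RNA after α-naphthylisothiocyanate (ANIT), a toxicant of the bile duct epithelium that causes cholestasis. All features of the array whose annotated symbol was exactly Slc10a1, Slc22a8, Slco1a4, Slco2b1, Abcc1, Abcc2 or Abcc4 were taken, which gave 12 of the 1936 features. Of these, 9 features belonged to the 4 uptake carriers and 3 to the 3 efflux pumps. In the ANIT group, male Sprague-Dawley rats received 75 mg/kg of ANIT in olive oil by intraperitoneal injection. The control group, of the same strain and sex, received an equal volume of olive oil, and in both groups the right lateral lobe was taken after 24 h. The ages of the rats are not given in the sources.

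Liver RNA of the 3 rats of each group was mixed, which left 1 ANIT pool and 1 olive oil pool. Each of the 4 spotted cDNA arrays compared the pools directly. The ANIT pool carried Cy5 on arrays 1 and 3, whereas on arrays 2 and 4 it carried Cy3. As the labels describe no other RNA, the arrays were treated as technical repeats. Each SD below is over 4 hybridisations and holds no spread between animals, and the treatment has no p-value. Values are log ratios read as log2, ANIT pool over olive oil pool. The direction is likely rather than stated, since it follows the channel order in the labels. With the opposite direction every sign below would turn.

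Hepatocytes take up bile acids and organic anions from blood across the basolateral membrane and export them, largely as conjugates, across the canalicular membrane into bile. Slc10a1 (Ntcp) couples the uptake of conjugated bile acids to sodium, while the Slco carriers work without sodium and Slc22a8 (Oat3) exchanges organic anions. The Abcc pumps spend ATP to move conjugates out, Abcc2 (Mrp2) into bile and Abcc1 (Mrp1) and Abcc4 (Mrp4) across the basolateral membrane. In cholestasis these carriers influence how much bile acid stays inside the hepatocyte, and several of their genes are known to respond to bile acid sensing nuclear receptors.

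The promoter windows of the 3 uptake genes with a feature at least 2-fold lower, and of Abcc2 as the efflux pump with the highest ratio, are shown because these genes lay at opposite ends of the carriers' ratios. They are RefSeq sequences of the build GRCr8 from 250 bases before to 50 after the table's transcription start, on the gene's own strand. Capitals mark every match to TATAAA (a core promoter box), GTTAAT (a core of the HNF1 site), AGGTCA (a core bound by nuclear receptors), TGACNNNGC (the antioxidant response core) or TTCNNNGAA (a STAT site), looked for on both strands. No matches overlapped in these windows.
Slc10a1, GRCr8 chr6:106357895-106358194, minus strand: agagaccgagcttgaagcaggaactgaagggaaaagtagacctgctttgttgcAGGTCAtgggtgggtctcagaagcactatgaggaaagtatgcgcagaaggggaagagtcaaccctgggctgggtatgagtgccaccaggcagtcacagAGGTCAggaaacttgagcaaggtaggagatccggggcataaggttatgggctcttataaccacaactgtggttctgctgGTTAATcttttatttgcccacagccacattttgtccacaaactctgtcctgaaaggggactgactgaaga
Slc22a8, GRCr8 chr1:214927034-214927333, plus strand: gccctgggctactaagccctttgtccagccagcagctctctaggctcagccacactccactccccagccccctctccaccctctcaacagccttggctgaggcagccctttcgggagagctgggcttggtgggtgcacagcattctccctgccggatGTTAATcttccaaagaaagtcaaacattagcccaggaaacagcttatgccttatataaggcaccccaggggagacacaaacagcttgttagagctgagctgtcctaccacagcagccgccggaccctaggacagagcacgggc
Slco1a4, GRCr8 chr4:176495797-176496096, minus strand: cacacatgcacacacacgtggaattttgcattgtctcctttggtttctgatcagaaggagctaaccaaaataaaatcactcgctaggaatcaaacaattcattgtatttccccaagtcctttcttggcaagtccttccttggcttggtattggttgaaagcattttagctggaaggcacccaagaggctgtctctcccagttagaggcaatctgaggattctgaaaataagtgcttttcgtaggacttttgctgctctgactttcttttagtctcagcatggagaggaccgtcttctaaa
Abcc2, GRCr8 chr1:252613625-252613924, plus strand: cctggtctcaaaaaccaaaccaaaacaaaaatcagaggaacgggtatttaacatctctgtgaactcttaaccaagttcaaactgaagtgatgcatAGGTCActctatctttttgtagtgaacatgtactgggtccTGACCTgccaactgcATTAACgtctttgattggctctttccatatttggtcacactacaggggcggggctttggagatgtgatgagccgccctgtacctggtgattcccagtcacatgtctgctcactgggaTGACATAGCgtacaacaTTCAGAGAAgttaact

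All 7 member genes matched a RefSeq promoter. In the Slc10a1 window the HNF1 core began at base -20 and the nuclear receptor core at -197 and -99. For Slc22a8 the HNF1 core began at -93, and the Slco1a4 window held none of these letters. The Abcc2 window held the HNF1 core at -100, the nuclear receptor core at -155 and -115, the antioxidant core at 18 and the STAT site at 35. The HNF1 core was found in 2 of 4 uptake and 1 of 3 efflux windows, against 7.45% of 33469 rat promoter windows. The nuclear receptor core was found in 1 of 4 uptake and 1 of 3 efflux windows (16.2% of all windows), the STAT site in 1 of 4 and 2 of 3 (8.87%), the antioxidant core in 0 of 4 and 1 of 3 (12.1%), and TATAAA in 0 of 4 and 0 of 3 (14.2%). The transcription starts used for Slc22a8, Slco2b1, Abcc1 and Abcc4 lie inside the annotated span of their gene. They are 1778, 11347, 64 and 1548 bases from its upstream boundary, so other starts of these genes were not searched. These matches describe letters in the windows and show no binding.

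In the ANIT pool, Slc10a1, Slc22a8 and a feature of Slco1a4 were lower by 2.66- to 3.75-fold, while no efflux feature reached 2-fold. The rule used here asked for a mean ratio of at least 2-fold (1 on the log2 scale) and for all 4 arrays to share its sign. By it, 4 of 9 uptake features were lower and 0 higher, while 0 of 3 efflux features were lower and 0 higher. Over all 1936 features, 3.05% were lower and 0.775% higher by the same rule. The 4 lower features were both of Slc10a1, that of Slc22a8 and 1 of 2 of Slco1a4. At 1.5-fold, 7 of 9 uptake features were lower, against 6.92% of all features, and no carrier was higher, against 2.48%. Slco2b1 feature 514, among these 7, fell short of 1.5-fold with each array centred on its median (1.40-fold). With whole-liver RNA, fewer hepatocytes and less RNA per hepatocyte cannot be told apart.

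**Figure D1:**
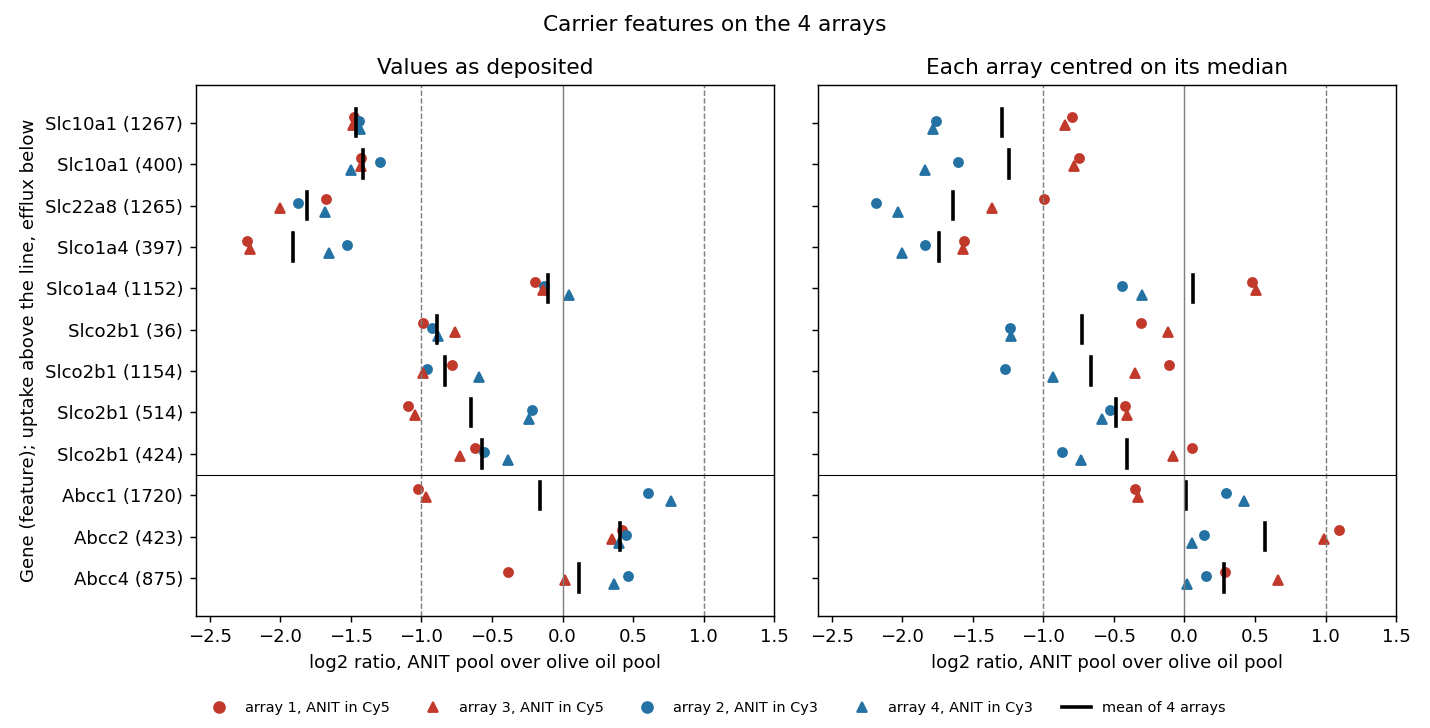
Log2 ratios (ANIT pool over olive oil pool) of the 12 carrier features on each array, as deposited (left) and after centring each array on its median (right); points are arrays, coloured by the dye of the ANIT pool, and black bars are means of 4 arrays. As deposited, the Slc10a1 points lie between -1.50 and -1.29, whereas the Abcc1 points lie on both sides of 0 according to the dye.

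Slc10a1 is the main sodium-coupled bile acid carrier of the hepatocyte. Its gene lies on chromosome 6 (GRCr8 106344319 to 106357944), and its promoter is the first of those printed above. Feature 1267 read -1.47, -1.45, -1.49 and -1.43 on arrays 1 to 4, a mean of -1.46 ± 0.02 (SD, n = 4 hybridisations), or 2.75-fold lower in the ANIT pool. Feature 400 read -1.43, -1.29, -1.43 and -1.50, a mean of -1.41 ± 0.08, or 2.66-fold lower. All 8 readings were below -1, and neither dye orientation stood apart. Both features carry the same clone identifier in the annotation, so they are repeat spots and not separate evidence from different parts of the transcript.

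Slc22a8, the organic anion exchanger Oat3, lies on chromosome 1 (214925506 to 214945516). Its only feature, 1265, read -1.67, -1.87, -2.01 and -1.68, a mean of -1.81 ± 0.16, or 3.50-fold lower. On each of the 4 arrays it lay below both Slc10a1 features, with differences of -0.58 to -0.19 on the log2 scale from feature 400 and of -0.52 to -0.20 from feature 1267. The ranges of Slc22a8 and Slc10a1 did not overlap, a statement about hybridisation error alone.

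Slco1a4 (Oatp2 in the rat), a sodium-independent carrier of bile acids and other organic anions on chromosome 4 (176441104 to 176495846), gave unlike readings on its 2 features. Feature 397 read -2.24, -1.53, -2.21 and -1.66, a mean of -1.91 ± 0.37, or 3.75-fold lower. It was the lowest carrier feature, and lower with ANIT in Cy5 (-2.22) than with ANIT in Cy3 (-1.59). Feature 1152 read -0.19, -0.13, -0.14 and 0.05, a mean of -0.10 ± 0.10, and with centred arrays its mean was 0.06. Feature 397 minus feature 1152 was -1.80 ± 0.32, below 0 on all 4 arrays. Of 340 genes with at least 2 features, 4 (Slco1a4 included) had features this far apart or farther, and the median span was 0.20. The gene mean, -1.01 ± 0.22, sits at the 2-fold limit and stands for neither feature.

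The features of Slco1a4 come from different clones, and which transcripts each clone detects was not tested. Slco1a4 has near relatives in the rat genome, and a further feature, 238, carried the 3 symbols Slco1a1, Slco1a5 and Slco1a6 and so was no member. It was added after its values were seen, and read -1.08, -0.77, -1.23 and -0.35, a mean of -0.86 ± 0.39. That is below 0 on all 4 arrays and short of 2-fold.

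Slco2b1, an uptake carrier of sulfated steroids and other organic anions on chromosome 1 (163371410 to 163419412), had 4 features from 4 clones, and none reached 2-fold with the values read as log2. Read as natural logarithms, feature 36 would be 2.43-fold and feature 1154 2.30-fold lower. Feature 36 read -0.99, -0.93, -0.76 and -0.88, a mean of -0.89 ± 0.09. Feature 1154 averaged -0.83 ± 0.18, feature 514 averaged -0.65 ± 0.49 and feature 424 averaged -0.57 ± 0.14. All 16 readings were below 0 as deposited, and the 4 means spanned 0.32. With ANIT in Cy5, 30.0% to 52.1% of all features read lower than a Slco2b1 feature, against 3.10% to 17.0% with ANIT in Cy3. With centred arrays feature 424 read 0.05, -0.87, -0.08 and -0.73 on arrays 1 to 4. Over both roles, 8 of 9 uptake features and 0 of 3 efflux features were below 0 on every array, against 17.6% of all features, whose median was -0.25. Feature 514 differed between dyes, at -1.07 where ANIT carried Cy5 but -0.23 where it carried Cy3. Averaged over its features as deposited, Slco2b1 stood at -0.74 ± 0.17, or 1.67-fold lower, past 1.5-fold and short of 2-fold. With centred arrays features 36 and 1154 were 1.65- and 1.59-fold lower. Features 514 and 424 were then 1.40- and 1.33-fold lower, short of 1.5-fold.

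Abcc2, the canalicular pump of conjugated bilirubin and glutathione conjugates, lies on chromosome 1 (252613875 to 252672459). Its feature, 423, read 0.42, 0.45, 0.35 and 0.40, a mean of 0.40 ± 0.04, or 1.32-fold higher, short of 1.5-fold. It was above 0 on every array, as were 11.9% of all features. It lay above 91.8% and 92.8% of all features on arrays 1 and 3 (ANIT in Cy5). On arrays 2 and 4 (ANIT in Cy3) it lay above 64.0% and 55.6%, nearer the middle. On each array both Slc10a1 features lay below it, with Slc10a1 minus Abcc2 at -1.87 ± 0.03 (feature 1267) and -1.82 ± 0.07 (feature 400). Slc22a8 minus Abcc2 was -2.21 ± 0.15, and Slco2b1 feature 36 minus Abcc2 was -1.29 ± 0.13, again below 0 on all 4 arrays.

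The basolateral pumps gave no ratio of settled sign. Abcc4, which exports bile acids together with glutathione and lies on chromosome 15 (101948387 to 102182912), read -0.39, 0.47, 0.02 and 0.36 on its feature 875, a mean of 0.12 ± 0.39. Abcc1, a pump of glutathione conjugates such as leukotriene C4, lies on chromosome 10 (1022041 to 1162431). Its feature 1720 read -1.03, 0.60, -0.97 and 0.77, a mean of -0.16 ± 0.97. Both readings with ANIT in Cy5 were below 0 and both with ANIT in Cy3 above 0. With centred arrays the mean was 0.01. The sign of Abcc1 thus followed the dye, and its mean ratio is smaller than its spread.

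Ordered from the lowest mean, the carrier features ran Slco1a4 397, Slc22a8, Slc10a1 1267, Slc10a1 400, Slco2b1 36, Slco2b1 1154, Slco2b1 514, Slco2b1 424, Abcc1, Slco1a4 1152, Abcc4 and Abcc2. Neighbours in this order had overlapping ranges over the arrays as deposited, with exceptions between Slc22a8 and Slc10a1 1267 (a gap of 0.35) and between Slc10a1 400 and Slco2b1 36 (0.52). With centred arrays the ranges of both these pairs overlapped too. Among all 1936 features, Slco1a4 397 was at rank 13 from the lowest mean, Slc22a8 at 16 and the Slc10a1 features at 27 and 29. The Slco2b1 features lay at ranks 69, 82, 127 and 154. Abcc2 was at rank 143 from the highest mean and Abcc4 at 303.

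**Figure D2:**
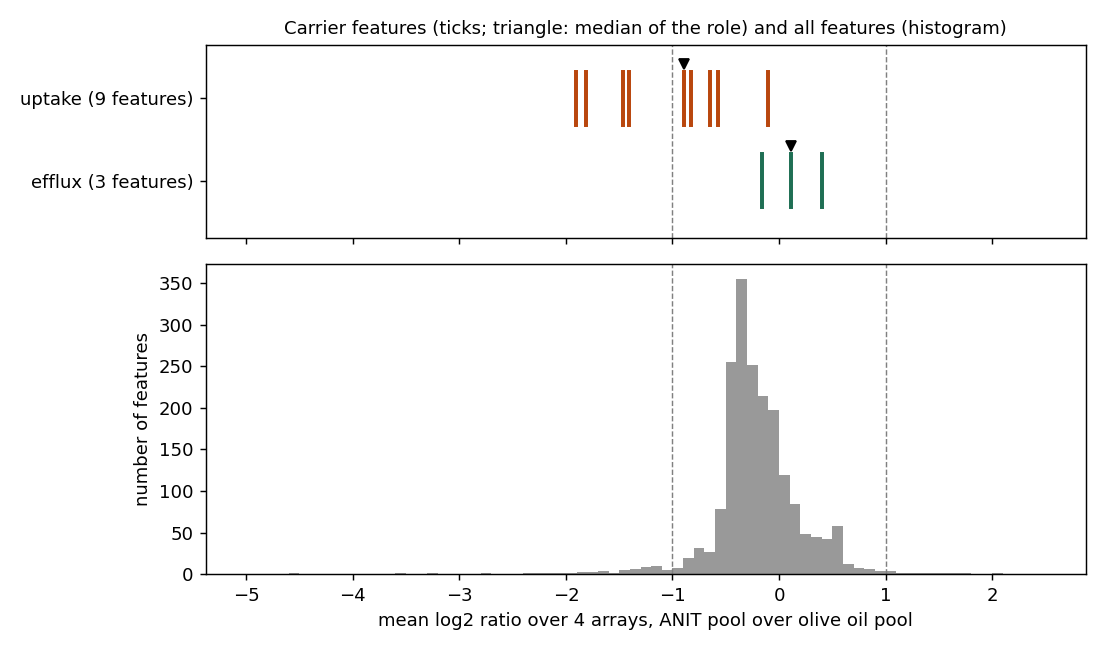
Mean log2 ratio over 4 arrays (x axis, ANIT pool over olive oil pool) of the uptake and efflux features (ticks above, triangle for the median of each role) and the number of features per bin of all 1936 features (histogram below), with dashed lines at 2-fold. The uptake median is -0.89 and the efflux median 0.12, while the median of all features is -0.25.

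Set against each other, the uptake features had a median of -0.89 and the efflux features of 0.12, a difference (uptake minus efflux) of -1.01. The median of all features was -0.25. On arrays 1 to 4 the difference was -0.71, -1.42, -1.07 and -1.28, so it had the same sign on every array. The groups did not overlap on arrays 2 and 4, where all 9 uptake features lay below every efflux feature. On arrays 1 and 3, where Abcc1 read low, 5 and 6 of the 9 did. By the mean over arrays 8 of 9 did, the exception being Slco1a4 1152. Each role's median rests on features of few genes measured in the same 2 pools, and features of a gene are not replicates.

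The dye moved with several of these values, which is why both orientations are given. The median of all features was -0.68 on array 1 and -0.64 on array 3, where ANIT carried Cy5, but 0.31 on array 2 and 0.35 on array 4. The dye contrast, which is the mean with ANIT in Cy5 minus that with ANIT in Cy3, divided by 2, was at or below -0.5 in 43.2% of all features. Among the carriers this held for Abcc1 alone (-0.84), followed by Slco2b1 514 (-0.42), Slco1a4 397 (-0.32) and Abcc4 (-0.30). It was between -0.03 and -0.02 for Slc10a1, Slc22a8 and Abcc2, beside a median of -0.40 over all features. Arrays of equal orientation differed by a median of 0.14 (Cy5) and 0.11 (Cy3) per feature, and for the Slc10a1 features by at most 0.20. Each mean holds both orientations equally, so limma with a dye term gives the same ratios by construction and does not check them. They were -0.16 for Abcc1 (limma adjusted p = 0.036) and 0.12 for Abcc4 (adjusted p = 0.19). These p-values hold hybridisation error between 2 pools only and say nothing of the treatment.

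**Figure D3:**
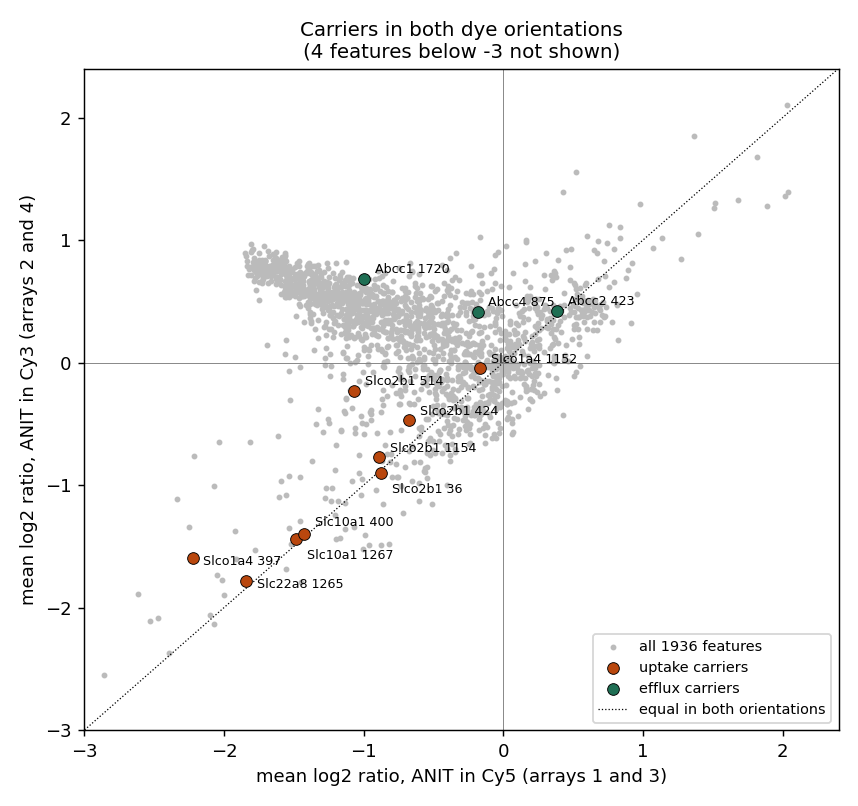
Mean log2 ratio with ANIT in Cy5 (x axis) against that with ANIT in Cy3 (y axis) for all features (grey) and the uptake and efflux carriers (coloured, with feature numbers); 4 features below -3 are not drawn. Slc10a1, Slc22a8 and Abcc2 lie on the line of equal ratios, whereas Abcc1, with readings of -1.03 and -0.97 on the x axis arrays and of 0.60 and 0.77 on the y axis arrays, lies in the arm of features whose sign follows the dye.

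The spread between hybridisations alone was also set against the ratios with limma and a dye term, a fit that compares the 2 pools and not the conditions. At an adjusted p limit of 0.05 over all features, 8 of 9 uptake features were lower, Slco1a4 1152 being the exception, and among the efflux features Abcc1 was lower and Abcc2 higher. The same fit put 61.0% of all features lower and 14.2% higher, so it does not set the carriers apart by count.

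By Euclidean distance over the 4 array values, the features with 1 symbol nearest to Slc10a1 1267 were Rab25 (0.15), the other Slc10a1 feature (0.18) and Gckr (0.21). Slc10a1 400 had the same neighbours, Slc10a1 1267 and Gckr at 0.18 each and Rab25 at 0.24. Nearest to Slc22a8 were Casp4 (0.28), Wt1 (0.36) and Cyp8b1 feature 1391 (0.36), and nearest to Slco1a4 397 were the same Cyp8b1 feature (0.34), Wt1 (0.42) and Car1 (0.48). With 4 hybridisations of the same pools, this distance measures only a like ratio and a like dye contrast.

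Genes that work beside the carriers were taken from 4 lists, of which 21 of 100 genes were on the array with a single symbol. By gene mean, 3 of the 21 were lower at 2-fold and 0 higher, against 3.55% lower and 0.626% higher among all 958 genes. The median was -0.36, beside -0.24 over all genes. All 3 were enzymes of bile acid synthesis, which make the cargo of Slc10a1: Cyp7a1 stood at -1.60 ± 0.78, Cyp27a1 at -1.31 ± 0.18 and Cyp8b1 at -1.19 ± 0.65. Both features of Cyp7a1 and both of Cyp27a1 were past 2-fold. For Cyp8b1, feature 1391 averaged -1.89 ± 0.19, whereas feature 422 read -1.61, 0.58, -1.30 and 0.34, a mean of -0.50 ± 1.12, so the gene mean stands for neither. The dye contrast was -0.16 for feature 1391 and -0.96 for feature 422, and -0.67 for the mean of Cyp7a1. The glutathione S-transferases Gsta2 (-0.45 ± 0.11) and Gstm2 (-0.36 ± 0.17), which form conjugates that Abcc pumps carry, did not reach 2-fold.

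Among 11 measured nuclear receptors and liver factors of 30 listed, 0 reached 2-fold, with a median of -0.30. The lowest was Nr1h4, the bile acid receptor FXR, at -1.27, -0.53, -1.23 and -0.38, a mean of -0.85 ± 0.46. The highest was Nr0b2 (SHP), a repressor induced by FXR, at 0.80, 0.49, 0.72 and 0.46, a mean of 0.62 ± 0.17. Other carriers were measured for 3 of 30 genes, the organic cation and anion carriers Slc22a3 (-0.38 ± 1.23), Slc22a6 (-0.28 ± 0.92) and Slc22a5 (-0.19 ± 0.77), and all 3 had a dye contrast below -0.5. Carrier support was measured for 2 of 17, the water channel Aqp1 (-0.13 ± 0.10) and ezrin (Ezr, -0.07 ± 0.06), a linker of membrane proteins to actin. The export pump of bile acids Abcb11 and the organic solute carriers Slc51a and Slc51b are listed, but no feature with a single symbol was found for them.

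**Figure D4:**
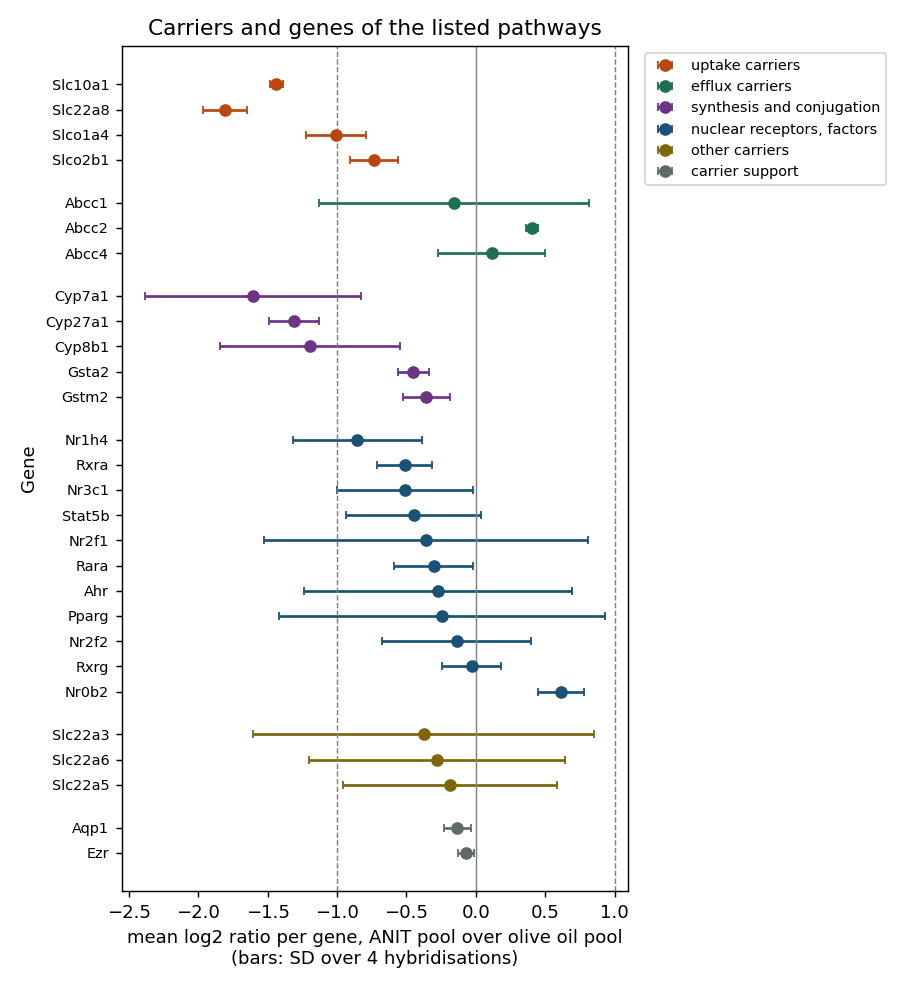
Mean log2 ratio per gene (x axis, ANIT pool over olive oil pool; bars, SD over 4 hybridisations) of the 7 carriers and of the measured genes of the 4 pathway lists, with dashed lines at 2-fold. Slc10a1 (-1.44), Slc22a8 (-1.81) and the synthesis enzymes lie left of the lower line, Slco1a4 (-1.01) sits on it, and Nr0b2 (0.62) is the highest.

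Of the hepatocyte markers, 4 of 13 were measured, with Serpina1 lowest (-0.28 ± 0.96) and Apoa1 highest (0.07 ± 0.20), and 0 reached 2-fold. Ttr, the plasma carrier of thyroid hormone, stood at -0.13 ± 0.27 and Tf, transferrin, at -0.0028 ± 0.38. Markers of other liver cells were measured for 11 of 51 genes, 0 past 2-fold, and 6 of the 11 had a dye contrast at or below -0.5. They ran from Il2rb of lymphocytes (-0.84 ± 0.12) to Vim of stellate cells and fibroblasts (0.13 ± 0.07). Cholangiocyte markers lay between Spp1 (-0.37 ± 1.15) and Aqp1, endothelial markers between Kdr (-0.44 ± 0.48) and Tek (-0.22 ± 1.01), and stellate cell markers began at Col1a1 (-0.44 ± 0.72). The neutrophil marker S100a9 stood at -0.13 ± 0.89, and macrophage markers were measured for 0 of 8. The files hold ratios without intensities, so no marker's level, and no carrier's, can be given for either pool.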

How the data were processed

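Per the labels, poly(A) RNA was purified from mixed liver RNA of 3 rats per condition, and the pools were compared on spotted cDNA arrays in both dye orientations. The authors deposited 1 log ratio per feature and array, taken here to be log2. How the spots were scanned, corrected and normalized, the logarithm's base and the ratio's direction are not given in the sources. The largest value, 4.96 in size, exceeds the 4.82 that a 16-bit scanner allows as log10 for a ratio of raw counts. As correction and normalization are unknown, this limit need not hold for the deposited values, and log10 is not excluded by it. Natural logarithms could not be told apart from log2. Ratios were used as deposited, without centring, and no intensity or detection call was at hand. The precision is limited by the number of arrays.

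Features were named through the platform annotation and RefSeq (GRCr8): 1432 carried 1 symbol, 19 several and 485 none. Shares, ranks and medians over all 1936 features include the 485 without a symbol, and what these spots hold was not looked up. Means, SDs and the size rule were computed in Python 3.11.15 with pandas 2.3.3 and numpy 2.4.6 and drawn with matplotlib 3.10.9. limma 3.58.1 in R 4.3.3 was an alternative, and both were tested on simulated data. Other alternatives were the size limit, centring, single dye orientations, natural logarithms, gene means, leaving out each array in turn, and a filter on dye contrast. The carriers, the lists and the rules were chosen with earlier results of these data known. Genes named were all features of the carriers, the 3 features nearest to each carrier feature past the rule, pathway genes past the rule or at either end of their list, and markers at either end. Other genes shown from short lists were added after their values were seen.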

Additional observations from a re-analysis of the deposited data

Results flagged for a closer look

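The Abcc1 feature gave opposite signs in the dye orientations. It read -1.03 and -0.97 on the arrays where ANIT carried Cy5, but 0.60 and 0.77 where it carried Cy3, and the means of the orientations differed by -1.68 (Cy5 minus Cy3). The difference was not tested. Among all features, 53.8% were likewise below 0 on both arrays of the Cy5 orientation and above 0 on both of the other. No carrier feature had a single array far from its other 3 by Dixon's criterion. As arrays share a dye orientation in pairs, this criterion cannot flag a dye effect.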

How the results depend on the processing

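With 1 array left out, 4 uptake features were lower in every case, the uptake median ran from -0.95 to -0.88, the efflux median from 0.01 to 0.22 and their difference from -1.10 to -0.96. The number of lower uptake features, with that over all 1936 features in brackets, was 7 at 1.5-fold (134) and 2 at 3-fold (23). It was 6 as natural logarithms (113), 5 with ANIT in Cy5 only (667) and 8 by limma (1181). Limma put 1 efflux feature lower and 1 higher. The uptake median was -0.72 with centred arrays, -1.07 with ANIT in Cy5 only and -1.22 over gene means. The efflux median changed sign with ANIT in Cy5 only (-0.18), the arrays on which Abcc1 and Abcc4 read lowest. Uptake minus efflux was -1.33 with ANIT in Cy3 only and -1.34 over gene means, and below 0 under each alternative run on it. Centring moves both medians alike and could not change this difference. The size limits, natural logarithms and limma were not run on it. Over all features, the number higher was 48 at 1.5-fold, 5 at 3-fold, 33 as natural logarithms and 275 by limma. Of the listed pathway genes, 1 was lower at 3-fold, 9 with ANIT in Cy5 only, 1 with ANIT in Cy3 only and 16 by limma, and 1 was higher at 1.5-fold and by limma. No share over all genes was at hand for these pathway counts, so they are not set against a background. As natural logarithms the 4 uptake features lower as log2 would be 4.10- to 6.74-fold lower, and Slco2b1 features 36 and 1154 would pass 2-fold too. The causes of these shifts were not tested. No paired analysis was possible because each condition is 1 pool.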

Other observations

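Centring each array on its median, which raised every mean by 0.17, changed which carrier features looked reproducible. The SD over arrays became larger in 8 of the 12 carrier features and smaller in 4, and larger in 41.3% of all features. Slc10a1 feature 1267, with an SD of 0.02 as deposited, had an SD of 0.55 when centred, reading -0.80 and -0.85 where ANIT carried Cy5 but -1.76 and -1.78 where it carried Cy3. Abcc2 had an SD of 0.55 centred and 0.04 as deposited, and Slc22a8 had 0.56 centred and 0.16 as deposited. Slco2b1 feature 514 had an SD of 0.09 centred and 0.49 as deposited, and Slco1a4 feature 397 had 0.22 centred and 0.37 as deposited. The 4 lower uptake features were past 2-fold in both versions. Slco2b1 feature 514 was past 1.5-fold as deposited (1.57-fold) and short of it centred (1.40-fold).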
